A study of Mus musculus with 3 samples.

Results

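Cells of mouse bone marrow in which a Rit1-M90I allele had been put together with Mx1-Cre were compared with cells that carried the same allele without Cre. The members were all barcodes of these 2 droplet libraries that held at least 1000 UMIs (distinct tagged mRNA molecules), at least 500 genes and at most 10% of UMIs in mitochondrial genes. This rule took 17340 of the 19762 barcodes so filtered in the whole series, 9817 of them from the Rit1-M90I library and 7523 from the control. The control was labelled Rit1M90I/+Mx1Cre-, with the word wild type in its title, and the other library was labelled Rit1M90I/+;Mx1Cre+. Mice of both groups were treated at 8 weeks of age with 3 doses of pIpC at 12 mg/kg, a double-stranded RNA that induces interferon and through it the Mx1 promoter, and marrow was collected 4 weeks afterwards. Live cells negative for CD3, CD11b, Gr1, B220 and Ter119 were sorted, which takes away most T, mature myeloid, B and late erythroid cells. The Mx1 promoter answers interferon in many cell types, so recombination need not be limited to blood cells. An effect of Cre cannot be told apart from one of the switched-on allele, because the control lacked both. How many mice were behind each library was not stated.

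RIT1 is a small GTPase of the RAS family. The adaptor LZTR1 brings RIT1 and some other RAS proteins to the CUL3 ubiquitin ligase, which marks them for breakdown, and RIT1 variants that escape LZTR1 build up and feed the RAF-MEK-ERK kinase cascade. RIT1 also binds the spindle checkpoint protein MAD2. In blood formation, RAS signals shape how stem and progenitor cells divide and how many become neutrophils and monocytes, and overactive RAS pathways are known from myeloid neoplasms.

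The site of the allele is shown first because it defines the mutant library. In the GRCm38 reference, Rit1 (ENSMUSG00000028057) lies on the plus strand of chromosome 3 from 88716838 to 88731049. Codon 90 of its 219 coding codons is an ATG in exon 5, at chr3:88726310-88726312. The reference coding bases from chr3:88726298-88726324, with codon 90 in capitals, read as follows.
Rit1 codon 90 with 12 bases on each side: cgggatcagtatATGagggcaggagaa
The M90I substitution changes this codon. Reads from the 3′ end of an mRNA are counted per gene, so the counts do not tell the M90I and wild-type mRNA apart.

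There was 1 library a genotype, so no difference below has a replicate, no test was possible, and none can be set against the spread between mice. Parentheses hold 95% intervals for counting error only. Levels are given as CPM, a gene's part of all UMIs of the library or population named, on a common scale. The kept cells held 66038812 UMIs in the control and 86036708 in Rit1-M90I, with medians of 7021 and 6885 UMIs a cell. The 2 libraries shared 12 barcodes. Ly6g, the Gr1 antigen of neutrophils that the sort was set against, was at 0.0303 CPM in control cells and 0.0930 CPM in Rit1-M90I.

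Rit1 mRNA was more abundant in the library with Cre. Control cells held 8.87 CPM (8.17 to 9.62) and Rit1-M90I cells 14.0 CPM (13.2 to 14.8), a ratio of 1.58 (1.43 to 1.74). The Lztr1 knockout library, the third of the series (Lztr1fl/fl;Mx1Cre+), had 11.8 CPM, between the other levels. Lztr1 itself (ENSMUSG00000022761, chr16:17508688-17526333) was at 17.4 CPM in the control and 15.3 CPM in Rit1-M90I, a ratio of 0.876 (0.808 to 0.948), and at 6.33 CPM in the Lztr1 knockout.

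To look within kinds of cells, barcodes were sorted into 16 populations by 125 marker genes, each cell going to the population with the highest mean marker score if that score reached 0.25. A population is therefore a range of scores, not a cell type proven otherwise, and 9.61% of control and 8.73% of Rit1-M90I cells stayed below the threshold. For 12 populations with at least 100 cells in both libraries, genes were compared within the population, leaving out the genes that set the gate. Rit1 was higher in Rit1-M90I in 11 of these 12 populations. In the neutrophil progenitor gate it went from 7.58 CPM in the control to 12.0 CPM, a ratio of 1.58 (1.28 to 1.95), and in the monocyte lineage gate from 9.80 to 15.3 CPM, a ratio of 1.56 (1.24 to 1.98). In the erythroid progenitor gate Rit1 was at 5.43 against 10.2 CPM, a ratio of 1.89 (1.47 to 2.43). The basophil and mast cell gate had the most Rit1 mRNA of the large gates, 21.4 CPM in the control and 32.2 CPM in Rit1-M90I, a ratio of 1.51 (1.17 to 1.96). The stem and multipotent gate rested on 13 and 27 Rit1 UMIs, with a ratio of 2.94 (1.47 to 6.21). In the NK cell gate, the exception, the ratio was 0.859 (0.315 to 2.28). Intervals that held 1 were those of the lymphoid progenitor, megakaryocyte, plasmacytoid dendritic, T, NK, B and plasma cell gates.

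**Figure D1:**
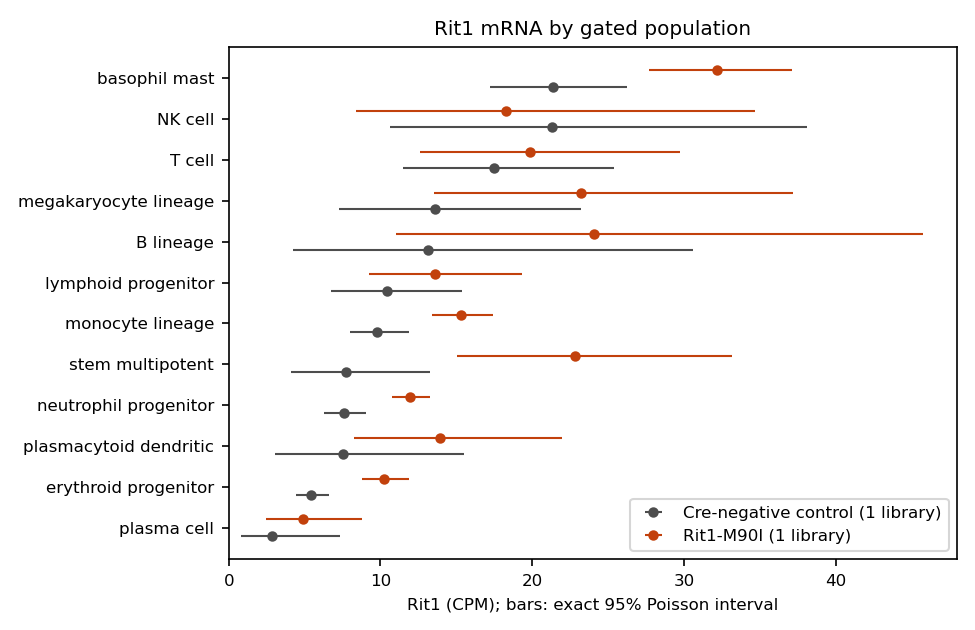
Rit1 mRNA in CPM (horizontal axis) in each of 12 gated populations, with control cells in grey and Rit1-M90I cells in orange, 1 library each, and bars for the exact 95% Poisson interval. The orange point lies to the right of the grey one in every gate but that of NK cells, and the wide bars belong to gates with few Rit1 UMIs.

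The makeup of the sorted marrow differed, with more cells in the neutrophil progenitor gate and fewer in the stem, erythroid progenitor, megakaryocyte, T, NK and B cell gates of Rit1-M90I. The neutrophil progenitor gate was set on Ms4a3, the granule protein genes Elane, Mpo, Prtn3, Ctsg and Fcnb, and transcription factor genes Cebpe and Gfi1. It held 2708 Rit1-M90I cells (27.6%, 26.7 to 28.5) and 1290 control cells (17.1%, 16.3 to 18.0). The ratio of these shares was 1.61 (1.52 to 1.71), and in the Lztr1 knockout library the gate held 15.6% of cells. Cells thinned to 1000 UMIs each before gating gave 28.1% and 17.3%, a ratio of 1.62 (1.53 to 1.72). Shares of one library sum to a fixed total. With the T, NK, B and plasma cell gates left out of the total, a choice made after seeing the data, the ratio was 1.52. Within 0.05 of the threshold lay 121 Rit1-M90I and 56 control cells of this gate, and for 285 (10.5%) and 114 (8.84%) a second gate scored within 0.05 of it. Split at a score of 0.5, the lower range held 15.8% of Rit1-M90I cells and 8.87% of control cells, a ratio of 1.78 (1.63 to 1.94), and the upper range held 11.8% and 8.28%, a ratio of 1.42 (1.30 to 1.56). The median neutrophil progenitor score was higher in Rit1-M90I in every gate but its own. It was 0.0116 in control and 0.0382 in Rit1-M90I cells of the erythroid progenitor gate. In the monocyte gate it was 0.150 and 0.206, and in the T cell gate 0.0253 and 0.0743. The part of this shift in the neutrophil gate's share was not tested.

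The monocyte lineage gate was nearly level, at 15.3% of Rit1-M90I and 14.9% of control cells, a ratio of 1.02 (0.953 to 1.10). Neutrophil and monocyte gates together held 42.9% and 32.1%. The basophil and mast cell gate held 16.4% and 15.8%, a ratio of 1.04 (0.973 to 1.12), and the plasmacytoid dendritic gate 2.42% and 2.26%, a ratio of 1.07 (0.883 to 1.30). These intervals held 1, as did those of the lymphoid progenitor gate (3.90% and 4.45%), the conventional dendritic gate (0.530% and 0.372%) and the stroma and endothelium gate (0.550% and 0.359%).

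Below the control were the stem and multipotent gate (2.33% against 3.75%, ratio 0.622, 0.524 to 0.739) and the erythroid progenitor gate (11.3% against 15.0%, ratio 0.754, 0.698 to 0.815). The megakaryocyte gate stood at 1.04% against 1.49%, a ratio of 0.698 (0.535 to 0.911). The eosinophil gate was small, with 0.357% against 0.598%, a ratio of 0.596 (0.384 to 0.926). The few cells in the erythroblast gate, 99 and 49, were the more frequent in Rit1-M90I, at 1.01% against 0.651%, a ratio of 1.55 (1.10 to 2.18). Gates of mature lymphocytes, among them lineages the sort was set to remove, also differed. The T cell gate held 3.69% of Rit1-M90I and 7.75% of control cells, a ratio of 0.476 (0.419 to 0.541), the NK gate 1.59% and 2.49% (ratio 0.639, 0.518 to 0.789), and the B lineage gate 1.14% and 1.74% (ratio 0.655, 0.510 to 0.842). The plasma cell gate held 2.11% and 1.65%, a ratio of 1.28 (1.03 to 1.59).

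**Figure D2:**
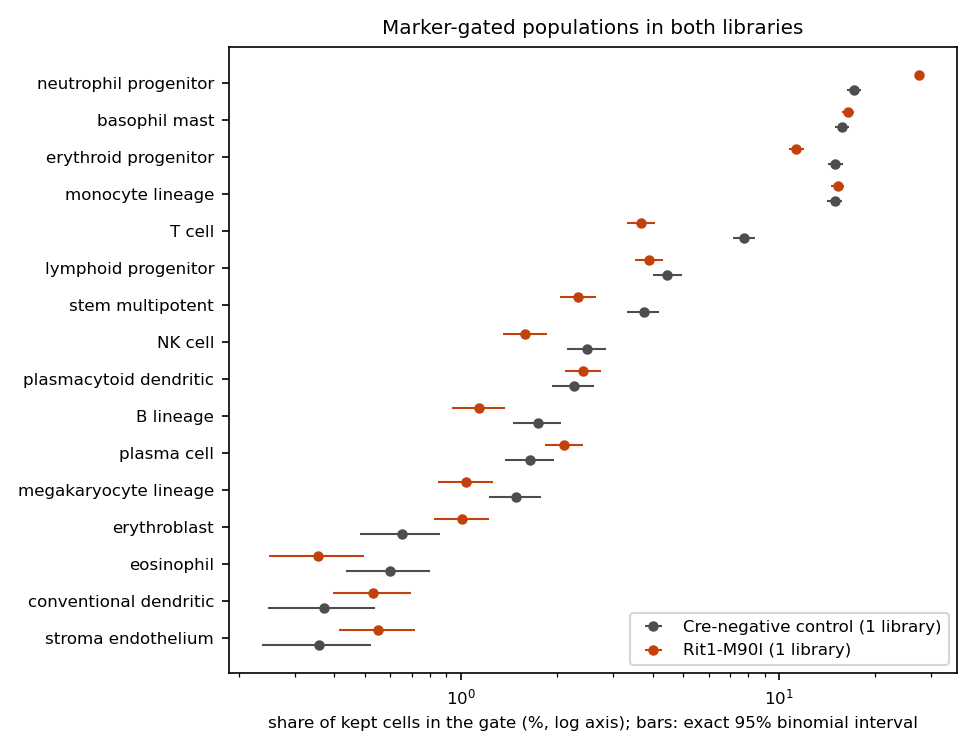
Share of kept cells in each of 16 gated populations (horizontal log axis, percent), control in grey and Rit1-M90I in orange, 1 library each, with exact 95% binomial intervals. The orange point lies far to the right for neutrophil progenitors (27.6% against 17.1%) and to the left for T cells (3.69% against 7.75%).

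Over all kept cells, the genes with the highest ratios came from immunoglobulins, neutrophil granules and globins, and those with the lowest from heat shock proteins, T cells, interferon responses and MHC class I. Of 6016 genes at 20 CPM or more in either library, 32 (0.532%) were past a fold of 1.5 with 10 CPM added to both levels, 20 (0.332%) higher and 12 (0.199%) lower in Rit1-M90I, and the median gene stood at a log2 ratio of -0.05. Log2 ratios in the text use these added 10 CPM, which shrink the ratio of scarce genes, while plain ratios have intervals. Because most genes lay close together, the gene groups are given with their members past the fold and their medians.

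Neutrophil granule genes stood above the control over all cells, beside a neutrophil progenitor gate that held more cells. Elane, Mpo and Prtn3 help to set that gate, so their levels and its share are not separate results. Primary granules are made early in neutrophil development and hold proteases and peroxidase, and all 15 measured genes of that list had ratios above 1, with 3 of 15 past the fold and a median log2 ratio of 0.38. Prtn3, encoding proteinase 3, was at 2050 CPM in the control and 3340 CPM in Rit1-M90I. Elane, encoding neutrophil elastase, was at 1472 and 2113 CPM, Mpo, encoding myeloperoxidase, at 1878 and 2364 CPM, and Hp, encoding haptoglobin, at 66.2 and 125 CPM. Giving each of the 12 populations equal weight brought the median of the list down to 0.11. In the Lztr1 knockout library Prtn3 was at 1665 and Elane at 1225 CPM, both under the control. Of 21 late granule genes 6 were measured, with a median of 0.32, which was 0.093 over the list without the floor of 20 CPM. Past the fold were S100a8 (48.0 against 130 CPM) and Wfdc21 (19.1 against 52.4 CPM), and Wfdc21 met the floor in Rit1-M90I only.

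Prtn3 and Elane neighbour each other on chromosome 10, both help to set the neutrophil gate and both were higher over all cells, with ratios of 1.63 and 1.43, so their promoters are printed from RefSeq (GRCm38.p6, plus strand, 250 bases before the start and 50 after it). The gene annotation used for the other coordinates has Prtn3 from 79874476 to 79883174, so the RefSeq window of Prtn3 lies inside that longer span. Capitals mark the letters GAGGAA, the core of motifs bound by the myeloid factor PU.1.
Prtn3 promoter, chr10:79879417-79879716: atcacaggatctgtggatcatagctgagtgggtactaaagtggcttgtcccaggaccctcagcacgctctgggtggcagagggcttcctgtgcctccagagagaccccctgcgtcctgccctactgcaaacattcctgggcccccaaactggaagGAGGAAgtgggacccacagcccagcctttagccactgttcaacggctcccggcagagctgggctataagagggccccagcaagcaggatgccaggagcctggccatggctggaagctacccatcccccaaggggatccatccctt
Elane promoter, chr10:79886062-79886361: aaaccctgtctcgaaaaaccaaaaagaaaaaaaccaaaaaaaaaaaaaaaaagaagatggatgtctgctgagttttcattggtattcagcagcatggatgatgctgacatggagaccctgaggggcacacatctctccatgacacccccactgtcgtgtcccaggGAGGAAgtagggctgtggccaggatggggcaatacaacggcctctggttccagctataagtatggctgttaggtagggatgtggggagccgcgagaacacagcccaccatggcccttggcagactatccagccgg
GAGGAA was searched on both strands and occurred 1 time in each window. It occurs in 28.3% of the 32851 promoters in the table, so a match is common. TTGCNNAA, a core of C/EBP motifs searched in the same way, occurred 0 times in both windows and occurs in 10.8% of promoters.

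Within the neutrophil progenitor gate Tfrc and some late granule genes were higher and several progenitor genes lower. Of 5424 measured genes 27 (0.498%) were past the fold, 13 (0.24%) higher and 14 (0.258%) lower. The 10 primary granule genes that did not set the gate had a median log2 ratio of 0.05, none past the fold, but cells entered the gate by a score over genes of the same kind. Of 21 late granule genes 8 were measured and 4 were past the fold. S100a8, a calcium-binding protein of neutrophils, was at 178 CPM (172 to 185) in the control and 340 CPM (334 to 347) in Rit1-M90I. Wfdc21 was at 76.5 and 140 CPM, Lcn2, encoding an iron-trapping lipocalin, at 14.8 and 32.1 CPM, and S100a9 at 10.7 and 21.5 CPM. Lcn2 and S100a9 met the floor in Rit1-M90I only. Camp and Ngp, also of late granules, were scarce, at 1.27 and 0.711 CPM and at 0.636 and 0.129 CPM in cells with a score of 0.5 or more. In the Lztr1 knockout these 4 genes were at 169, 29.2, 12.5 and 8.09 CPM, each under the control. Tfrc, the transferrin receptor that brings iron into dividing cells, was at 38.9 CPM (35.9 to 42.0) and 86.3 CPM (83.1 to 89.6), a ratio of 2.22 (2.03 to 2.43).

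Several genes of immature progenitors were lower in the same gate. Cd34, a surface protein of early progenitors, was at 178 CPM in the control and 122 CPM in Rit1-M90I, a ratio of 0.687 (0.654 to 0.721). Adgrg1, an adhesion receptor of stem and progenitor cells, was at 84.8 and 44.9 CPM, and Sox4, a transcription factor of progenitors, at 157 and 107 CPM. With 10 CPM added, Cd34 and Sox4 stayed inside the fold. Apoe, the lipid carrier protein, had the lowest ratio of the 4 named, 105 against 46.1 CPM, or 0.437 (0.407 to 0.470). Of 27 stem cell identity genes 8 were measured there, and the 1 past the fold, Angpt1 (21.3 against 8.81 CPM), met the floor in the control only. Both score ranges of the gate had lower Cd34: between 0.25 and 0.5 Cd34 was at 240 and 172 CPM, and at 0.5 or more at 113 and 72.4 CPM. Adgrg1 was at 115 and 60.6 CPM in the lower range and at 53.7 and 29.2 CPM in the upper one. Tfrc was at 41.5 and 76.9 CPM, and at 36.1 and 95.8 CPM.

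Genes of cell division were slightly higher in neutrophil progenitors of Rit1-M90I, none past the fold. All 31 measured G2/M genes had ratios above 1, with a median log2 ratio of 0.19, as had 13 of 15 spindle checkpoint genes (median 0.21) and 31 of 45 S phase genes (median 0.08). The median of all genes in this gate was -0.02. Rrm2, a subunit of ribonucleotide reductase, was at 84.0 CPM in the control and 122 CPM in Rit1-M90I, and Hist1h1b, a linker histone, at 266 and 385 CPM. Nusap1, a spindle protein, was at 41.0 and 57.0 CPM. Over all cells Mad2l1, encoding the MAD2 protein that RIT1 binds, was at 49.2 and 51.6 CPM, a ratio of 1.05 (1.0005 to 1.10).

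The lymphoid progenitor gate went the other way. There 32 of 34 G2/M genes were below the control with a median of -0.34, 43 of 45 S phase genes with -0.31 and 12 of 14 spindle checkpoint genes with -0.37. Past the fold, in a gate where 135 of 6489 genes (2.08%) were past it, 98 (1.51%) higher and 37 (0.57%) lower, were 2 G2/M genes, 1 S phase gene, 2 checkpoint genes and 4 of 14 histone genes, all of them lower. Mki67, a mark of dividing cells, was at 280 CPM (259 to 301) and 177 CPM (161 to 196), and Cdk1, the kinase that starts mitosis, at 90.5 and 54.9 CPM. Hist1h2ap was at 1942 and 1005 CPM, although near-identical histone genes can exchange reads. Kit, the stem cell factor receptor, was at 48.8 and 84.3 CPM in this gate, a ratio of 1.73 (1.37 to 2.19), and Ly6c2 at 10.0 and 34.3 CPM. Elane, a neutrophil gene, was at 15.4 and 60.2 CPM there, and the part of RNA from other cells in the Ly6c2 level was not tested. The gate's cells had a median of 6807 UMIs in the control and 5499 in Rit1-M90I, and the part of that difference in these values was not tested. Whether the neutrophil and lymphoid gates differ from each other was not tested either.

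The other gates varied. Medians of the G2/M list were 0.08 in the monocyte gate, 0.04 in the erythroid progenitor gate, 0.09 in the basophil and mast cell gate and 0.03 in the stem and multipotent gate, while 41 of 46 S phase genes were below the control in the monocyte gate (median -0.11). In the plasmacytoid dendritic gate 31 of 38 G2/M genes were below the control (median -0.21) and S phase genes had a median of -0.25. The T cell gate had a G2/M median of 0.27. In the NK cell gate, with 156 Rit1-M90I and 187 control cells, 18 of 24 measured G2/M genes were higher by the fold (median 0.95). Genes counted in this gate needed 20 CPM in either library, so a scarce gene could enter by its level in a single library. There 1027 of 6574 genes (15.6%) were past the fold, 552 (8.4%) higher and 475 (7.23%) lower. The median T cell score of the NK gate's cells was 0.243 in the control and 0.140 in Rit1-M90I. The part of this difference in makeup in the NK gate's G2/M values was not tested. Over all cells S, G2/M and spindle checkpoint genes had medians of -0.02, 0.03 and 0.04, with no member past the fold in 46, 35 and 15 genes.

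**Figure D3:**
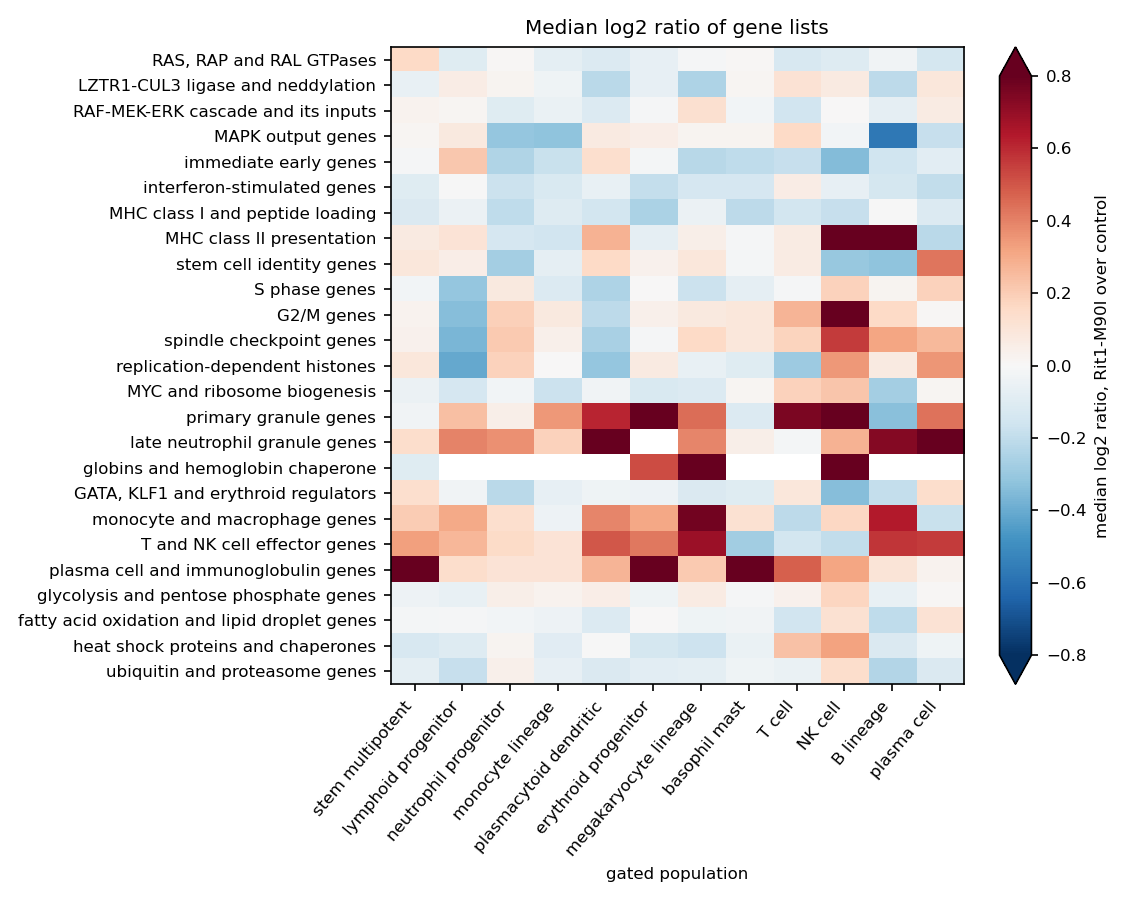
Median log2 ratio of Rit1-M90I over control for 25 gene lists (rows) in 12 gated populations (columns), red for higher and blue for lower in Rit1-M90I, with colours ending at 0.8 either way and white squares where no member was measured. Cell division lists are pale red in neutrophil progenitors (G2/M 0.19) and blue in lymphoid progenitors (G2/M -0.34), and granule and immunoglobulin lists are red in many gates.

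The RAS pathway's own genes differed little. None of the 6 measured RAS, RAP and RAL genes passed the fold over all cells, and 5 were slightly lower, with a median of -0.09. Hras was at 68.6 CPM in the control and 61.2 CPM in Rit1-M90I, Nras at 60.1 and 56.0 CPM, and Rap1a, the one above the control, at 136 and 143 CPM. Scarce members were Ralb at 9.74 and 12.2 CPM and Rras2 at 5.59 and 4.28 CPM. Of the ligase and neddylation genes none of 10 passed the fold (median -0.06). Cul3, the ligase scaffold, was at 83.0 and 81.5 CPM, Rbx1, its RING partner, at 300 and 281 CPM, and Nedd8, the small protein that activates it, at 269 and 271 CPM. Among 22 genes of the RAF-MEK-ERK cascade and its inputs none passed the fold and the median was -0.04. Ptpn11, encoding the phosphatase SHP2, was at 52.6 and 45.8 CPM, and Mapk3, encoding ERK1, at 44.8 and 47.5 CPM.

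Output genes of the pathway were below the control over all cells but not within every gate. All 5 measured MAPK output genes were below the control over all cells, none past the fold, with a median of -0.22. Myc was at 125 CPM in the control and 104 CPM in Rit1-M90I, a ratio of 0.831 (0.806 to 0.856), and Kcnn4, a potassium channel gene, at 72.6 and 59.7 CPM. Within populations Myc was higher in 7 of 12 and lower in 5, and Il1rl1 higher in 9 and lower in 3. Ccnd1 and Spred1 were each higher in 6 and lower in 6, and Kcnn4 was higher in 4 and lower in 8. Medians of the list were -0.31 in the neutrophil and -0.32 in the monocyte gate, and above 0 in the erythroid progenitor (0.06), lymphoid progenitor (0.08), plasmacytoid dendritic (0.07) and T cell (0.16) gates. Feedback inhibitors of the pathway were scarce: Dusp6 was at 14.1 and 12.5 CPM and Spry2 at 14.0 and 12.4 CPM. In the monocyte gate, where 27 of 5870 genes (0.46%) were past the fold, 19 (0.324%) higher and 8 (0.136%) lower, Ccnd1, encoding cyclin D1, was at 121 CPM (114 to 127) and 69.9 CPM (65.8 to 74.3), the 1 member of 4 past the fold. The stem and multipotent gate had 162 of 6859 genes (2.36%) past the fold, 113 (1.65%) higher and 49 (0.714%) lower, and there the immediate early genes Egr1 (16.1 against 51.5 CPM, ratio 3.20, 2.003 to 5.24) and Junb (44.7 against 89.5 CPM, ratio 2.002, 1.48 to 2.73) were higher while Jun was at 201 and 140 CPM. Over all cells 7 of 10 immediate early genes were lower, none past the fold, with a median of -0.08. Jun was at 85.5 and 61.0 CPM and Jund at 116 and 89.7 CPM, and in the Lztr1 knockout they were at 50.9 and 74.9 CPM.

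Some genes differed in one direction in all 12 populations. Of 3932 genes with 50 CPM or more in at least 3 populations, 48 were higher and 25 lower in every population. Cpt1a, which carries fatty acids into mitochondria, was at 48.4 and 28.4 CPM, at 27.1 CPM in the Lztr1 knockout, and reached a log2 ratio of -1.06 in the plasmacytoid dendritic gate. Tmsb10, an actin-binding peptide, was at 1312 and 1074 CPM.

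Among the named genes higher in all 12 were Ly6c2, Pdcd4, Hk2, Snhg9, Gm47283, Gm42031 and the immunoglobulin genes Ighg2b and Ighg2c. Some were nearly level in a population, with lowest log2 ratios of 0.0077 for Ighg2c, 0.013 for Pdcd4 and 0.059 for Ly6c2. Hk2, a hexokinase that begins glycolysis, was at 33.7 CPM in the control and 58.9 CPM in Rit1-M90I, with log2 ratios from 0.21 to 1.43, and was the 1 of 20 glycolysis genes past the fold. Pdcd4, an inhibitor of translation, was at 251 and 379 CPM, but in the stem and multipotent gate its log2 ratio of 0.63 turned to -0.36 at a gate threshold 2 times as high. The level of Snhg9, a small RNA host gene, was 55.0 and 86.8 CPM. Ly6c2, a surface protein of monocytes and neutrophils, was at 363 and 536 CPM, with the highest log2 ratio, 1.43, in the stem and multipotent gate (5.96 against 32.9 CPM). Of neutrophil genes in that gate, Elane (22.7 and 91.2 CPM) and S100a8 (5.37 and 25.3 CPM) were also higher, while Prtn3, Mpo and Ctsg were lower. The part of RNA from other cells in the Ly6c2 values was not tested. Gm47283 was at 68.5 and 112 CPM and at 167 CPM in the Lztr1 knockout. It is annotated on chromosome Y at 90784738 to 90816464, while Ddx3y of that chromosome had 0 UMIs in both libraries. Gm42031, a long noncoding RNA gene (chr8:85125872-85132289), was at 3.91 and 46.0 CPM, at 7.04 CPM in the Lztr1 knockout, and in the monocyte gate at 9.43 and 119 CPM. The genes of 2 small ribosomal proteins were also higher in all 12, Rps29 (9184 and 12785 CPM, Lztr1 knockout 11832) and Rps28 (6183 and 8341 CPM, Lztr1 knockout 8038). Values of the Lztr1 knockout are set beside those of the same control, which both comparisons share.

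**Figure D4:**
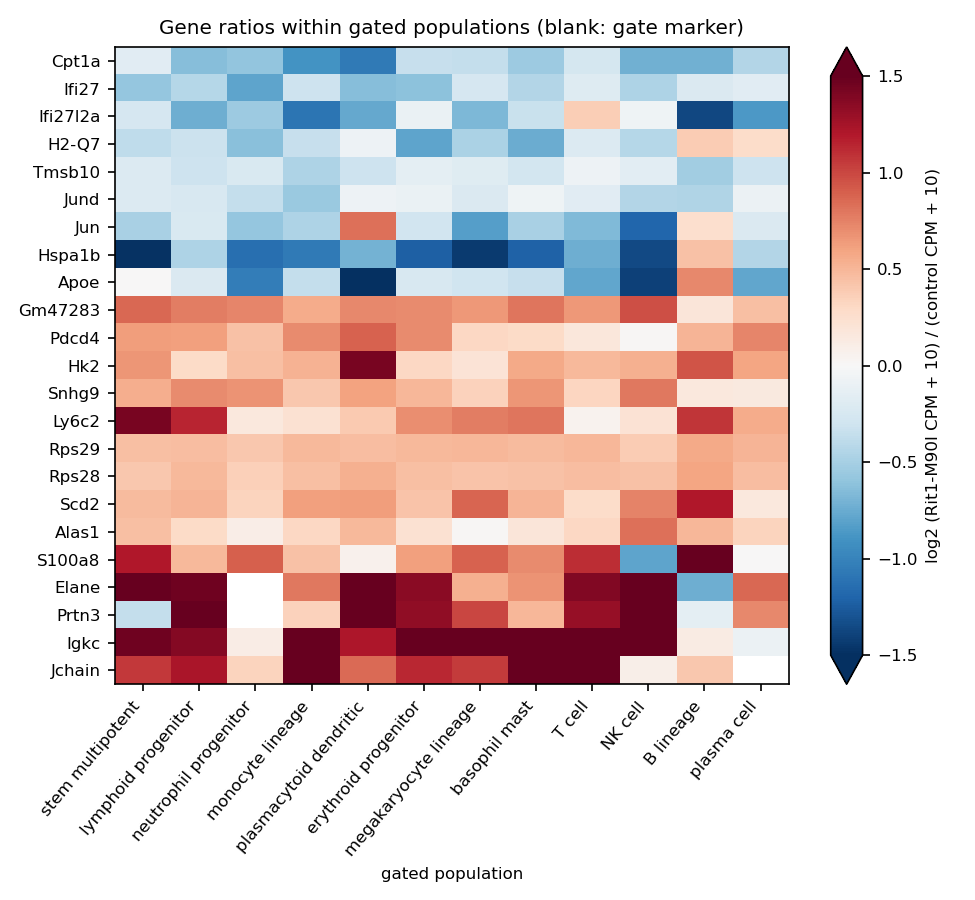
Log2 ratio of Rit1-M90I over control for selected genes (rows) in 12 gated populations (columns), with 10 CPM added to both levels, colours ending at 1.5 either way, and blank squares where the gene set the gate. Cpt1a and Ifi27 are blue and Hk2 and Rps29 red in every column, whereas Igkc and Jchain are deep red in several gates of other lineages and Elane is too, except in the B lineage gate, where it is blue.

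Interferon-stimulated and MHC class I genes were mostly lower in Rit1-M90I, whereas class II genes went both ways. Of 18 measured interferon-stimulated genes 16 were below the control, 2 past the fold, with a median of -0.16. These were Ifi27l2a (67.4 against 34.3 CPM) and Ifi27 (77.1 against 45.2 CPM), neighbours on chromosome 12. In the monocyte gate Ifi27l2a was at 194 CPM (186 to 202) in the control and 85.3 CPM (80.7 to 90.1) in Rit1-M90I, and at 139 CPM in the Lztr1 knockout. It was lower in 11 of 12 populations, and in the T cell gate its log2 ratio was 0.37. Of 15 genes of MHC class I and peptide loading 14 were lower, 1 past the fold, with a median of -0.15. H2-Q7 was at 138 and 78.2 CPM, and in the erythroid progenitor gate at 113 and 61.5 CPM. Class I genes are alike in sequence and can exchange reads. H2-D1, a classical class I gene, was at 708 and 630 CPM and lower in all 12 populations. Of 6 measured genes of MHC class II presentation, a list described after its values had been seen, 4 were above the control over all cells, none past the fold, with a median of 0.19. Cd74, the class II invariant chain, was at 70.9 and 89.6 CPM. In the B lineage gate, of 112 Rit1-M90I and 131 control cells, 7 of 10 class II genes were higher by the fold (median 0.93), where 1539 of 6735 genes (22.9%) were past it, 555 (8.24%) higher and 984 (14.6%) lower. In this gate too, a scarce gene could meet the floor of 20 CPM by its level in a single library. Cells of that gate were not alike in the 2 libraries. Their median lymphoid progenitor score was 0.110 in the control and 0.0598 in Rit1-M90I. The conventional dendritic score, set partly on class II genes, was 0 and 0.254. Median UMIs were 1810 and 2722, and the part of the gate's makeup in the class II values was not tested.

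Erythroid regulators were below the control over all cells, beside an erythroid progenitor gate that held fewer cells. All 15 measured regulators of the GATA and KLF1 group were below the control, none past the fold, with a median of -0.24, and Klf1 was at 68.4 and 51.1 CPM. Within the erythroid progenitor gate, where 24 of 5622 genes (0.427%) were past the fold, 20 (0.356%) higher and 4 (0.0711%) lower, the median of those not in the gate was -0.04. Globins, which red cell precursors load late, were above the control there: Hbb-bs was at 43.4 and 85.3 CPM, a ratio of 1.97 (1.80 to 2.14), and Hba-a1 at 65.4 and 92.6 CPM. In the neutrophil progenitor gate Hbb-bs was at 4.78 and 8.84 CPM.

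Hspa1a and Hspa1b, stress-induced chaperone genes of near-identical sequence, were the 2 of 23 chaperone genes past the fold. Hspa1b was at 39.8 CPM in the control and 12.8 CPM in Rit1-M90I, a ratio of 0.321 (0.299 to 0.345), and at 22.4 CPM in the Lztr1 knockout. In the basophil and mast cell gate, with 32 of 6191 genes (0.517%) past the fold, 24 (0.388%) higher and 8 (0.129%) lower, Hspa1b was at 26.0 and 5.50 CPM, and the immediate early genes Fos and Fosb were at 36.8 and 17.5 CPM and at 41.8 and 17.5 CPM.

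**Figure D5:**
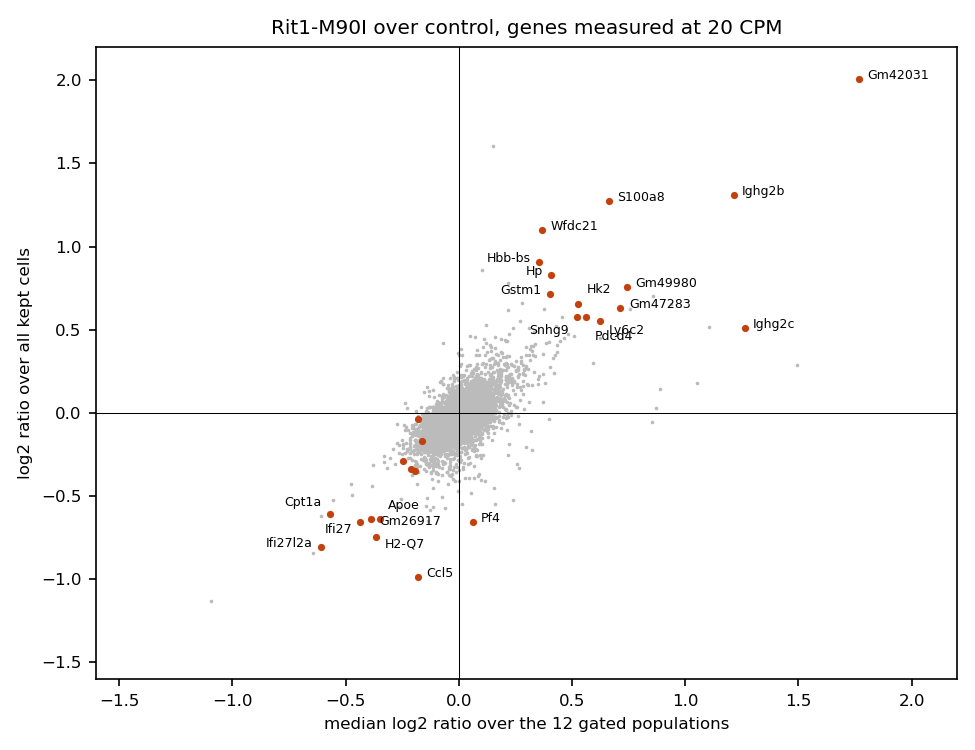
Log2 ratio of Rit1-M90I over control over all kept cells (vertical) against the median of the log2 ratios in 12 gated populations (horizontal), 1 grey point a gene at 20 CPM or more and orange points for genes taken by their ratio; Iglc1, at 4.32 over all cells, lies above the frame. Cpt1a lies below 0 on both axes, and Ccl5 is at -0.99 over all cells and at -0.18 over populations.

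Immunoglobulin and granule mRNA was also found in gates of other lineages, in most of them at higher levels in Rit1-M90I. The kappa light chain gene Igkc was at 102 CPM in the control and 940 CPM in Rit1-M90I in the monocyte gate, at 192 and 1320 CPM in the basophil and mast cell gate and at 567 and 1785 CPM in the erythroid progenitor gate. Among values the other way were Igha in the neutrophil gate (398 and 277 CPM) and Elane in the B lineage gate (194 and 112 CPM). Prtn3 (307 and 276 CPM) and Ctsg (152 and 112 CPM) were also lower in the B lineage gate. So were Ctsg (1623 and 1306 CPM) and Mpo (946 and 769 CPM) in the basophil and mast cell gate. In the stem and multipotent gate Prtn3 was at 639 and 496 CPM and Mpo at 367 and 309 CPM. Igkc was at 597 and 645 CPM in the neutrophil gate. In the plasma cell gate itself Igkc was at 387331 and 364637 CPM. Elane was at 27.6 and 86.1 CPM in the erythroid progenitor gate and at 38.1 and 116 CPM in the T cell gate, and in the neutrophil gate, which it helps to set, at 5683 and 5408 CPM. Outside the neutrophil gate Elane stood at 115 and 256 CPM, a ratio of 2.23 (2.17 to 2.30), and Prtn3 at 584 and 936 CPM. S100a8 was at 5.91 and 12.1 CPM outside the gate. The part of free RNA in these values, and through them in the list medians for granule and immunoglobulin genes and in the neutrophil gate's share, was not tested.

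Iglc1, the constant region of a lambda light chain, had the highest ratio of all named genes. Its level over all cells was 731 CPM (725 to 737) in Rit1-M90I against 27.2 CPM (25.9 to 28.5) in control cells, and 302 CPM in the Lztr1 knockout. In the plasma cell gate it was at 1012 and 26975 CPM, a ratio of 26.7 (25.3 to 28.1), while Iglc2 was at 5241 and 3451 CPM and Ighg2b at 8581 and 17403 CPM. The gate held 207 Rit1-M90I and 124 control cells. Ccl5, a chemokine of T and NK cells, had the lowest log2 ratio over all cells (-0.99) among genes at 50 CPM or more, 308 against 150 CPM, beside T and NK gates that were smaller in Rit1-M90I.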

How the data were processed

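Droplet libraries of sorted marrow were made from 3 genotypes, and those of Rit1-M90I and its control were compared here. The authors deposited UMI counts per gene and barcode, written by Cell Ranger 6.1.1 per the file headers, and per the submitters' processing notes the build was mm10 and Seurat 4.1.0 was used. How cells were called was not stated. The protocol names an input of 3 to 6700 cells, which may be a slip, and the files held 8476 (control) and 11573 (Rit1-M90I) barcodes. The filters removed 11.2% and 15.2%. The rule takes every barcode that passes, so doublets stayed in; scrublet marked 3.32% and 4.58%, removed as an alternative. The members, lists and gates were chosen with earlier results of these data known.

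Each marker's log-scaled level (UMIs per 10000) was divided by its mean over the highest 1% of cells of both libraries, and a gate score is the mean over its markers. The threshold of 0.25 was set after scores had been seen. UMIs were summed by library and population, and 40 gene IDs whose symbol another ID also carries were kept as rows of their own. Exact Poisson, exact conditional, Clopper-Pearson and Katz 95% intervals were computed in scipy 1.17.1 (Python 3.11.15, scanpy 1.11.5). Only the exact conditional intervals of gene ratios were checked on simulated counts, which were drawn from the Poisson model they assume. PCR and cell-to-cell spread are in none of the intervals.

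Named genes were Rit1 and Lztr1, the 8 highest and 8 lowest at 50 CPM over all cells and by the median over populations (1 sign in all, 50 CPM in 3), the 4 at each end in the 4 largest gates, and the 2 at each end of each of the 25 lists described out of 49. Genes named beyond this within a single population were chosen after their values were seen. Alternatives changed the cell filter, doublets, scaling, pseudocount, floor, depth, gate threshold and weighting. Some genes that this rule takes are not reported here.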

Additional observations from a re-analysis of the deposited data

How the results depend on the processing

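No paired analysis was possible because each genotype had 1 library and the labels give no replicate numbers, and for the same reason no replicate could be left out. Shares of cells kept their direction under every alternative run for the gates whose main interval leaves out 1, but some intervals then held 1. A gate threshold 2 times as high did so for stem (ratio 0.718, 0.479 to 1.08), megakaryocyte (0.819, 0.543 to 1.23), NK (0.766, 0.522 to 1.12) and plasma cells (1.27, 0.979 to 1.64), and the stricter filter for NK (0.795, 0.617 to 1.02) and B cells (0.815, 0.492 to 1.35). Thinning did so for megakaryocyte (0.734, 0.529 to 1.02), eosinophil (0.724, 0.453 to 1.16) and erythroblast gates (1.31, 0.953 to 1.81), and every deposited barcode for eosinophils (0.779, 0.524 to 1.16) and erythroblasts (1.21, 0.906 to 1.61). Log2 share ratios moved under the stricter cell filter to 0.46 for neutrophil progenitors (main 0.69), -0.67 for T cells, -0.33 for NK cells and 0.21 for basophil and mast cells. A gate threshold 2 times as high gave 0.51 for neutrophil progenitors, 0.20 for the monocyte gate and -0.49 for lymphoid progenitors. Cells thinned to 1000 UMIs gave -0.43 for the stem gate, -0.21 for erythroid progenitors and 0.17 for the monocyte gate. The stroma and endothelium gate, whose main interval held 1, had a ratio of 2.36 (1.23 to 4.53) at the higher threshold. With thinned cells its ratio was 1.64 (1.10 to 2.43). Other gates whose main interval held 1 also had intervals without it. Lymphoid progenitors had 0.710 (0.505 to 0.999) at the higher threshold and 0.812 (0.685 to 0.961) with thinned cells. With the T, NK, B and plasma cell gates left out they had 0.827 (0.717 to 0.955). The basophil and mast cell gate had 1.15 (1.06 to 1.25) under the stricter filter, and the monocyte gate 1.12 (1.01 to 1.26) with thinned cells.

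Over all cells the 20 higher genes became 33 and the 12 lower genes 31 with 1 CPM added in place of 10; 11 were higher with equal weight to populations, and 37 lower with equal weight to cells. Within gates 1 CPM gave 46 genes past the fold in neutrophil progenitors, 75 in the basophil and mast cell gate, 48 in the monocyte, 473 in the stem and 314 in the lymphoid gate. The higher gate threshold gave 72, 2736 and 1380 in the monocyte, stem and lymphoid gates, with fewer cells. It also turned Pdcd4 in the stem gate to -0.36.

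Of 284 recomputed list medians 29 left the 95% order-statistic interval of the median over the list's genes. Over all cells, equal weight to populations gave 0.11 for primary granule genes, 0.022 for stem cell genes, -0.077 for S phase, -0.052 for MYC and ribosome biogenesis, -0.055 for erythroid regulators, 0.054 for plasma cell genes and -0.00022 for glycolysis. Equal weight to cells gave 0.045 for S phase, 0.16 for G2/M, 0.18 for spindle checkpoint, -0.045 for MYC and ribosome biogenesis, -0.16 for erythroid regulators and -0.78 for T and NK genes. Centring on the median gene gave 0.0096 for the RAF-MEK-ERK cascade, 0.027 for S phase, 0.075 for G2/M, 0.093 for spindle checkpoint, -0.080 for MYC and ribosome biogenesis and 0.013 for ubiquitin and proteasome genes. Adding 1 CPM gave -0.27 for MAPK output and -0.60 for T and NK genes. Without a floor late granule genes had 0.093 and globins 0.22, and with every deposited barcode globins had 0.16. The cause of these moves was not tested.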

Other observations

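Spp1, encoding osteopontin, had 36.7 CPM over all Rit1-M90I cells against 5.33 CPM over control cells, with 7.86 CPM in the Lztr1 knockout. The Rit1-M90I ratio was 6.88 (6.16 to 7.70), while the median of its log2 ratios over the 12 populations was 0.15. It was among the 10 genes with the highest fold in the stroma and endothelium gate, which held 54 Rit1-M90I and 27 control cells. Cells of that gate had a median stroma and endothelium score of 1.27 in Rit1-M90I and 0.426 in the control. Prg2, an eosinophil granule gene, was lower in Rit1-M90I (62.0 CPM, control 93.6 CPM), beside an eosinophil gate of 35 Rit1-M90I and 45 control cells, while within all 12 compared populations it was higher in Rit1-M90I (median log2 ratio 0.24).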
